A study of Mus musculus with 26 samples.

Results

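The proteasome genes were taken as every gene symbol made of Psm, a letter from a to g and a number, which gave 48 of the 20430 symbols in the RNA tables and 48 of the 19941 symbols in the footprint tables. They were described by role: 7 subunits of the alpha ring, 7 of the beta ring, 5 tissue or immune forms of core subunits, 9 subunits of the regulatory base, 8 of the lid, 5 activators or inhibitors and 7 assembly factors. All came from NIH3T3, an established line of mouse embryonic fibroblasts with no genetic change named in the labels. Polyadenylated RNA was sequenced from 8 groups: a heat control, 44 °C for 2 h, 42 °C for 8 h, a control shared by H2O2 and KCl, H2O2 for 2 h and 7 h, and KCl for 2 h and 7 h. Ribosome footprints, the mRNA stretches covered by ribosomes, were sequenced from the 5 groups of the H2O2 and KCl experiment. Each group held 2 libraries, 26 in all. The sources used here do not give the H2O2 and KCl doses. Nothing in the labels says that replicates were separate cultures, so the p-values measure the spread between these libraries, which may be technical.

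The 26S proteasome is the protease that degrades proteins tagged with ubiquitin. Its core particle is a barrel of stacked alpha and beta rings, with the proteolytic sites in the beta subunits Psmb5, Psmb6 and Psmb7. A regulatory particle, built from a base of ATPases and a lid, binds, unfolds and feeds in the substrate. Cells under heat or oxidative stress make damaged protein, and lost proteasome activity is known to induce the subunit genes together through the transcription factor NRF1 (Nfe2l1). In immune cells, and in other cells after interferon, Psmb8, Psmb9 and Psmb10 replace the 3 proteolytic subunits.

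RNA libraries held 24441877 to 45244430 expected counts and footprint libraries 1460751 to 5168537, the shallowest footprint library being replicate 1 of H2O2 at 2 h. The 10 fibroblast markers each reached 10 TPM (TPM is a level scaled to transcript length and library total) in RNA. Summed leukocyte markers lay between 7.74 and 44.7 TPM, with Adgre1 and Cd3e at 0 in every library. Epithelial markers summed to 36.8 to 112 TPM in RNA and 156 to 381 TPM in footprints, and endothelial markers to 0.42 to 3.37 TPM in RNA. In RNA 2 of 5 leukocyte, 2 of 5 epithelial and 0 of 4 endothelial markers reached 10 TPM. Levels below are relative to all RNA of a library, so less RNA of a gene per cell and fewer cells that make it cannot be told apart. Differences are log2 fold changes ± the standard error, tested by the quasi-likelihood test of edgeR with Benjamini-Hochberg adjustment over all genes. A gene was called changed at an adjusted p under 0.05. Shares of all genes called are those of edgeR, and counts of members from other tools have no matching share here. Library values of differential tests are CPM, counts scaled to the size of the library.

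In the H2O2 and KCl control, RNA levels per length spanned a similar range in the constitutive core, the base and the lid. Mean RNA levels of the alpha ring ran from 246 TPM for Psma4 to 423 TPM for Psma2, and those of the beta ring from 302 TPM for Psmb2 to 589 TPM for Psmb7. The 14 core subunits thus spanned a 2.39-fold range, beside 2.51-fold in the base and 2.6-fold in the lid. Base subunits lay between 203 TPM (Psmc4, an ATPase) and 509 TPM (Psmd2, a scaffold), and lid subunits between 166 TPM (Psmd13) and 430 TPM (Psmd8). Assembly factors, which act on the nascent particle and are not part of the finished one, were lower, from 34.4 TPM for Psmg4 to 107 TPM for Psmd5. Activators and the inhibitor lay between 26.2 TPM (Psmf1) and 284 TPM (Psme2). The immune subunits were low: Psmb10 had a mean of 38.3 TPM, Psmb8 had 7.34 and 8.03 TPM in its 2 control libraries, and Psmb9 had 2.20 and 1.93 TPM. Psma8, a testis form of the alpha ring, had 0 counts in all 26 libraries, which allows up to 0.0663 to 0.123 CPM in RNA and 0.580 to 2.05 CPM in footprints. Psmb11, a thymus form of the beta ring, had 0 to 20 counts per RNA library and 0 in each footprint library. These upper limits cover counting error only.

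Footprints per RNA had higher medians in the core than in the regulatory particle, a comparison made without a test. The ratio of footprint TPM to RNA TPM in the control had a median of 1.25 over the alpha ring, 1.08 over the beta ring, 0.816 over the base and 0.931 over the lid. Over the 44 members with at least 10 TPM in both, the median was 0.966, beside 0.741 over all 6664 such genes, whose 10th and 90th percentiles were 0.356 and 1.56. Psmb3 lay above that range with 1.84 and 2.28. Psme2, a subunit of the PA28 activator, lay below it with 0.136 and 0.107; its near-identical copy Psme2b makes its counting uncertain.

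Promoters of 5 members are shown because these genes carry the changes described below: Psmd5 rose and Psmg1 fell among the assembly factors, Psmb5 and Psmb6 are proteolytic subunits of the constitutive core, and Psmb9 is the immune form of Psmb6. Each is the 250 bases before the annotated start, 5′ to 3′ on the gene's strand, from RefSeq on GRCm38.p6. Capitals mark a match to the antioxidant response element core (TGACNNNGC) or the CCAAT box (CCAAT), searched on both strands. The windows are chr2:34870963-34871212 (minus strand) for Psmd5, chr16:95990961-95991210 (minus) for Psmg1, chr14:54617996-54618245 (minus) for Psmb5, chr11:70525107-70525356 (plus) for Psmb6 and chr17:34187331-34187580 (minus) for Psmb9.
Psmd5: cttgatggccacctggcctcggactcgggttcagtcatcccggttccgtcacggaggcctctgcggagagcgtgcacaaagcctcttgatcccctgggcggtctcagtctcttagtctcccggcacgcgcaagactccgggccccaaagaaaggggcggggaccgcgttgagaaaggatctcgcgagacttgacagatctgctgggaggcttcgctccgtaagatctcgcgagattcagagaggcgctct
Psmg1: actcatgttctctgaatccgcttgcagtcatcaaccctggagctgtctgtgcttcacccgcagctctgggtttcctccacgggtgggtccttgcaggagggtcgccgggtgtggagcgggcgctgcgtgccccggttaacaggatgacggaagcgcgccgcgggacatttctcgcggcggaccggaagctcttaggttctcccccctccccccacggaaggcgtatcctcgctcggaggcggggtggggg
Psmb5: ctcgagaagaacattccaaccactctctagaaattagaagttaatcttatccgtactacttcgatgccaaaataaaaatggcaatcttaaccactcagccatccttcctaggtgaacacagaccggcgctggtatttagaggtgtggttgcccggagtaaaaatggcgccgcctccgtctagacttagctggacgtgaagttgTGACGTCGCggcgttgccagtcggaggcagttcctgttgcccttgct
Psmb6: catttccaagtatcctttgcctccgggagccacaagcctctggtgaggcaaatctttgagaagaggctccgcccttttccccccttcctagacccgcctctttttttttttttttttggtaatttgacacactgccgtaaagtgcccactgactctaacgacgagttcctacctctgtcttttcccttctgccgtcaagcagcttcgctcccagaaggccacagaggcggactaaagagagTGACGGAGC
Psmb9: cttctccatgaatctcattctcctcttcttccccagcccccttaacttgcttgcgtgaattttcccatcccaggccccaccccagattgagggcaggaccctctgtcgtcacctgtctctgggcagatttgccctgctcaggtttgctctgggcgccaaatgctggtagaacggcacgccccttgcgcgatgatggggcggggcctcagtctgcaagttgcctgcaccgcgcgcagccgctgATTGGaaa

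Psmd5 and Psmg1 hold none of these letters in the window. Psmb5 holds the antioxidant response element core from 47 to 39 bases before the start, and Psmb6 in the last 9 bases before it. The RefSeq table held 43 windows for 40 of the 48 members, and 5 of the 43 (11.6%) held that core, beside 10.2% of all 32851 windows of the table. The others were in Psmc6, Psmd9 and Psmd12. A CCAAT box was present in 32.6% of the members' windows and 33.8% of all windows. The heat shock element was in 0 of the 43 and in 0.466% of all. These shares differ little between the members and the table, and a match is a description of letters only.

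Proteasome RNA was lower after 2 h at 44 °C. Of 46 members tested, 32 fell and 3 rose, that is 69.6% lower, while 71% of all 12747 genes were called, 35.7% of them lower and 35.4% higher. The median of the members was -0.32 and that of all genes -0.00. All 7 beta ring subunits fell, as did 6 of 7 in the alpha ring, 8 of 9 in the base and 4 of 8 in the lid. The 31 constitutive subunits together made up 0.819 and 0.824% of TPM in the 2 control libraries and 0.695 and 0.678% at 44 °C. All 10 fibroblast markers fell too, with a median of -0.44, and their part in the result was not tested.

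Psmd8, a lid subunit, showed the largest fall, from a mean of 197 CPM (SD 4.04, n = 2) in the control to 109 and 109.8 CPM. The difference was -0.85 ± 0.04 (adjusted p = 6.1e-10 in edgeR), and the groups did not overlap. Psmb6, which carries the caspase-like site, had 125 and 126 CPM in the control and 78.4 and 75.5 CPM at 44 °C (-0.70 ± 0.05, edgeR adjusted p = 1.6e-08). Psma7 of the alpha ring went from 129 and 135 CPM to 83.9 and 88.3 CPM (-0.62 ± 0.05, edgeR adjusted p = 3.4e-08). Falls of this size were also found in Psme4, the nuclear activator PA200, at -0.72 ± 0.05 and in Psmb8 at -0.72 ± 0.10. The 3 members that rose were Psmg3, an alpha ring chaperone, at 0.34 ± 0.07, Psmd9, a base chaperone, at 0.24 ± 0.05, and Psme3, the nuclear activator PA28 gamma, at 0.24 ± 0.04. Psme3 had 113 and 113 CPM in the control and 132 and 134 CPM at 44 °C. None of the 3 is a subunit of the 26S particle itself.

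Of 26 other tested genes of the pathway, 8 rose and 12 fell, with a median of -0.08. Zfand2a, a stress-induced protein that binds the proteasome, went from 43.0 and 44.2 CPM to 82.3 and 88.7 CPM (0.97 ± 0.05). Sqstm1, an adaptor that carries ubiquitinated protein to autophagy, rose by 0.84 ± 0.04. Nfe2l1 was not called, at -0.06. Among the 8 subunits of the CCT chaperonin, another large complex made of many gene products, 3 rose, none fell and the median was 0.01.

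At 42 °C for 8 h the constitutive subunits were modestly higher. Of 46 members 32 rose (69.6%) and 5 fell, while 63.6% of all genes were called, 31.7% higher and 31.9% lower. The members' median was 0.17 and that of all genes -0.01. By role, 9 of 9 base subunits, 7 of 8 in the lid, 6 of 7 in the alpha ring, 3 of 7 in the beta ring and 4 of 7 assembly factors rose. On the deposited TPM values, tested with limma, this pattern was not found: 6 members rose and 12 fell. The members' median on TPM was -0.02 and that of all genes -0.16. The members' median thus lay above that of all genes on both scales, a difference that was not tested. The share of TPM taken by the 31 constitutive subunits was 0.835 and 0.807%, beside 0.819 and 0.824% in the control, and the groups overlapped. Of the 10 fibroblast markers 2 rose and 7 fell, with a median of -0.25.

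Psmd1, a scaffold of the base, rose the most, from 225 and 222 CPM to 325 and 307 CPM (0.50 ± 0.04, edgeR adjusted p = 1.6e-07). Psme3 went from 113 and 113 CPM to 152 and 150 CPM (0.42 ± 0.04, edgeR adjusted p = 5.8e-07). Psma3 rose by 0.38 ± 0.05 and Psmd8 by 0.35 ± 0.04. The 5 that fell were Psmb8, Psmb9 and Psmb10 and both subunits of the PA28 activator, Psme1 and Psme2, the set that interferon is known to induce. Psmb8 went from 9.46 and 9.22 CPM to 4.95 and 4.80 CPM (-0.94 ± 0.10, edgeR adjusted p = 2.7e-06), and Psme1 from 82.8 and 83.2 CPM to 63.1 and 66.1 CPM (-0.36 ± 0.04). Psmb10 fell by 0.32 ± 0.08 and Psme2 by 0.36 ± 0.05 on the log2 scale. Psmb9 is near the detection limit, with 1.56 and 1.52 CPM in the control and 1.09 and 0.670 CPM at 42 °C, and its call was lost without replicate 2 of 42 °C (-0.50, edgeR adjusted p = 0.14), without replicate 1 of the heat control (adjusted p = 0.064) and with DESeq2 (adjusted p = 0.10).

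Of the 26 other pathway genes 15 rose and 4 fell. Zfand2a reached 100.1 CPM in both libraries (1.20 ± 0.05), while Nfe2l1 went from 385 and 372 CPM to 208 and 217 CPM (-0.83 ± 0.04). Nfe2l2, the oxidative stress regulator NRF2, fell by 1.13 ± 0.04 on the log2 scale. Usp14, a deubiquitinase bound to the base, rose by 0.33. All 8 CCT subunits rose, with a median of 0.50. Set directly against 44 °C for 2 h, 42 °C for 8 h was higher for 38 of 46 members and lower for 0 in edgeR, with a median of 0.40, where 75.1% of all genes were called, 37.9% higher and 37.2% lower. On TPM that comparison gave 27 higher and 8 lower. Psmd8 differed the most, by 1.20 ± 0.04. Temperature and time changed together between these groups and cannot be told apart.

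**Figure D1:**
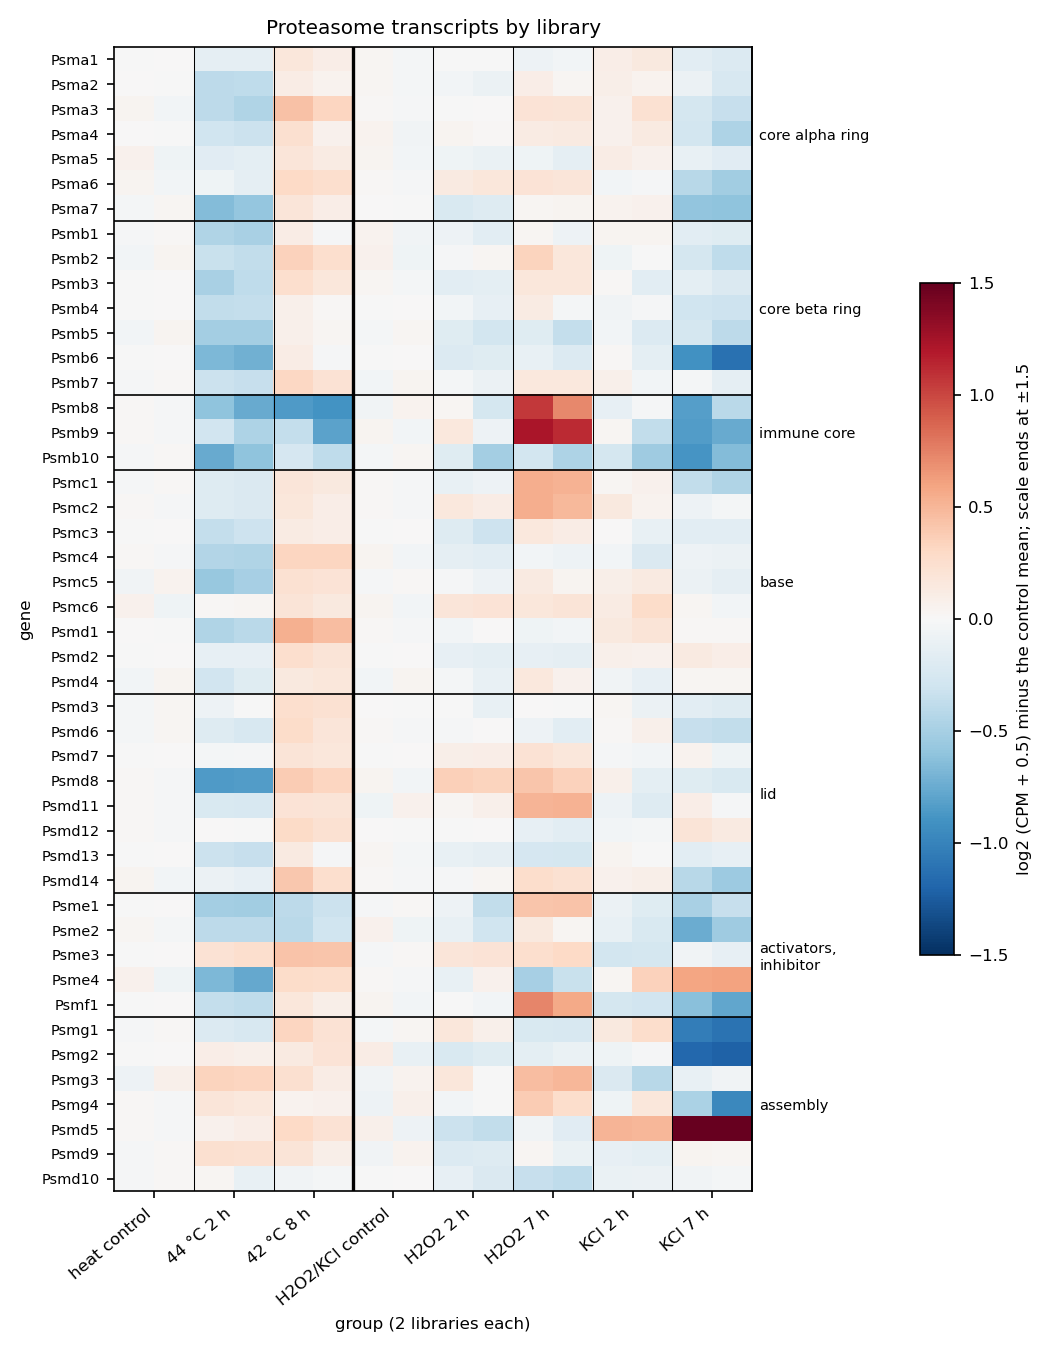
Heat map of RNA levels of 46 members (rows, by role) in each RNA library (columns, by group), as log2(CPM + 0.5) minus the mean of the matching control; the colour scale ends at -1.5 and 1.5. Most rows are lower at 44 °C and at 7 h of KCl, Psmd5 is beyond the scale at 7 h of KCl, and Psmb8 and Psmb9 are higher at 7 h of H2O2; Psma8 and Psmb11 are left out.

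After 2 h of H2O2 few members differed. Of 47 tested, 5 rose and 11 fell (10.6% and 23.4%), below the 27.3% and 26.5% of all 13256 genes called higher and lower (53.9% in all). Psmd8 had 290 and 275 CPM in the control and 362 and 356 CPM with H2O2 (0.34 ± 0.07, edgeR adjusted p = 0.00095), the reverse of its direction at 44 °C. Psmd5, a chaperone that binds the base ATPase Psmc2 during assembly, had 101 and 90.2 CPM in the control and 76.3 and 73.8 CPM with H2O2 (-0.35 ± 0.07, edgeR adjusted p = 0.00059). Psmc3, Psmb5 and Psma7 fell by 0.25, 0.23 and 0.21 on the log2 scale; without replicate 2 of H2O2 at 2 h, Psmc3 and Psmb5 were not called (edgeR adjusted p = 0.058 and 0.13). The count of 16 depended on single libraries: it was 4 without replicate 2 of H2O2 at 2 h, and 8 without either control library. Against this, Zfand2a rose from 71.4 and 67.9 CPM to 242 and 238 CPM (1.78 ± 0.07) and Sqstm1 from 442 and 420 CPM to 905 and 783 CPM (0.97 ± 0.08), while Nfe2l1 rose by 0.20, a call lost without replicate 1 of H2O2 at 2 h (0.15, edgeR adjusted p = 0.12).

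By 7 h of H2O2 members had moved both ways. Of 47, 19 rose and 8 fell (40.4% and 17%), while 70.5% of all genes were called, 39.4% higher and 31.1% lower. The members' median was 0.09 and that of all genes 0.08. The split depended on scaling, with 15 higher and 10 lower in DESeq2 and 13 higher and 15 lower on TPM with limma. All 10 fibroblast markers fell at this time, with a median of -1.18, and their summed level was 10800 TPM in the control and 4930 to 4980 TPM at 7 h of H2O2; their part in the members' changes was not tested. Higher members included the base ATPases Psmc1 and Psmc2 and the lid subunit Psmd11. Psmc1 went from 189 and 183 CPM to 272 and 267 CPM (0.54 ± 0.06, edgeR adjusted p = 9.6e-07). Psmd11, whose level is known to limit 26S assembly in some cells, went from 158 and 173 CPM to 236 and 238 CPM (0.52). Psmf1, the inhibitor PI31, had 37.2 and 35.0 CPM in the control and 60.5 and 53.9 CPM with H2O2 (0.66 ± 0.07, edgeR adjusted p = 1.8e-06). Psme4 moved the other way, from 165 and 160 CPM to 115 and 129 CPM (-0.41 ± 0.09), as did the base chaperone Psmd10 (-0.37 ± 0.06) and Psmb5 (-0.26). The fall of Psmb5 was not called without replicate 2 of H2O2 at 7 h (-0.18, edgeR adjusted p = 0.095). Of the 26 other pathway genes 13 rose and 7 fell: Zfand2a reached 249 and 257 CPM, Sqstm1 rose by 1.61 ± 0.08, Nfe2l2 by 0.79 and Nfe2l1 by 0.43 ± 0.06, from 296 and 295 CPM to 387 and 412 CPM. Akirin2, which carries proteasomes into the nucleus, fell by 0.68 on the log2 scale. Between 2 h and 7 h of H2O2, 21 members rose and 6 fell, where 73.4% of all genes were called, 37.3% higher and 36.1% lower, and the total of 27 was 17 without replicate 1 of H2O2 at 7 h.

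**Figure D2:**
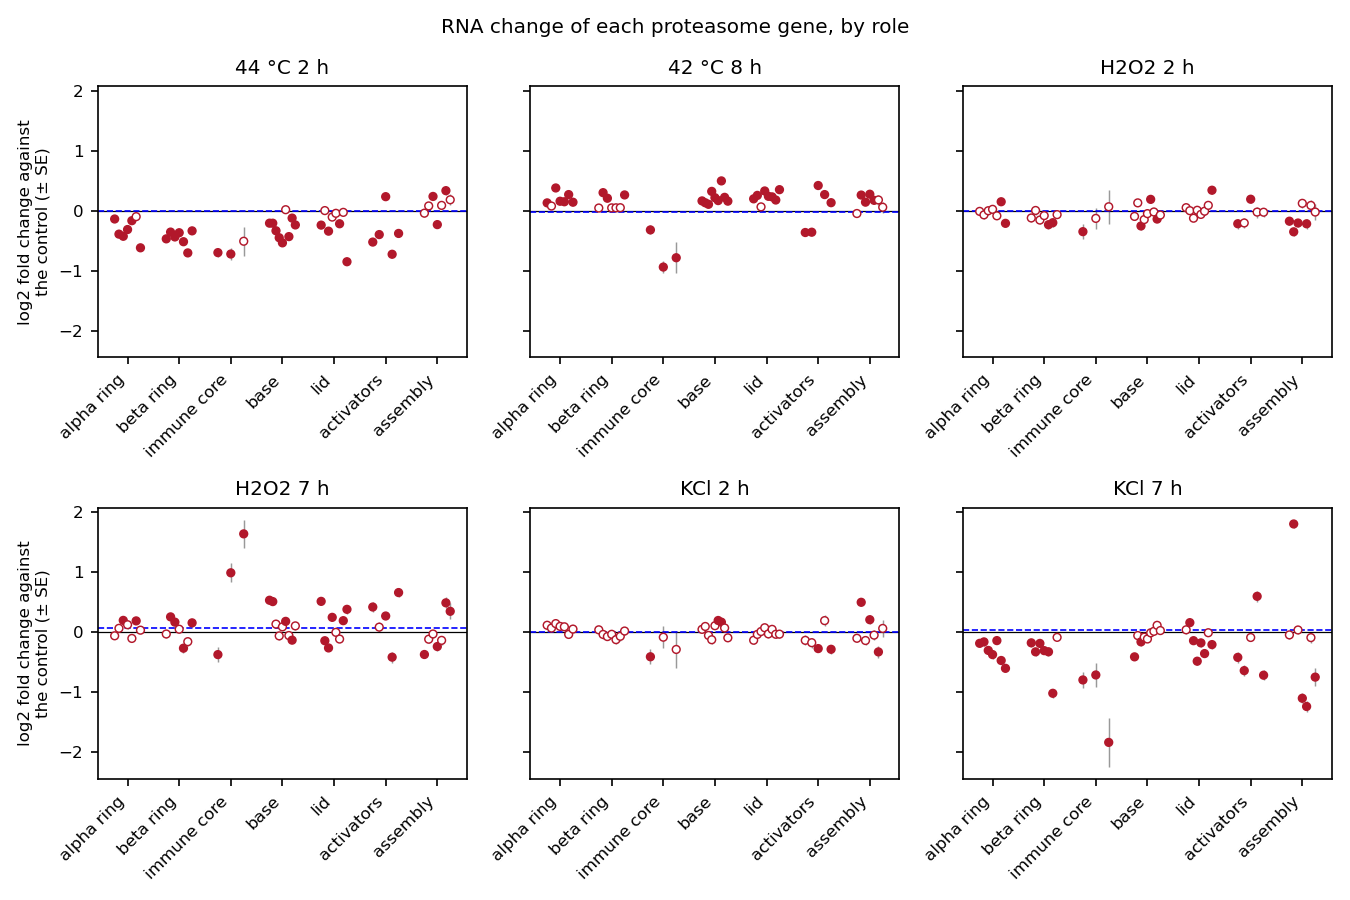
Log2 fold change ± standard error of each tested member against its control in RNA, 1 panel per treatment, members grouped by role; filled points were called at an adjusted p under 0.05, open points were not, and the dashed line is the median of all genes. The alpha and beta rings lie wholly below 0 at 44 °C and at 7 h of KCl, and assembly factors lie furthest apart at 7 h of KCl. Psma8 and Psmb11 are left out.

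KCl for 2 h left most members near the control. Of 47 tested, 5 rose and 4 fell, beside 27.2% and 27% of all genes called higher and lower (54.2% in all), and the median was -0.03. On TPM with limma 1 rose and 16 fell. Leaving out replicate 1 of KCl at 2 h gave 14 calls, leaving out its replicate 2 gave 3, and leaving out replicate 2 of the control gave 4. Psmd5 was the most changed of the 9 except Psmb11, with 136 and 135 CPM, above both control libraries (0.50 ± 0.07, edgeR adjusted p = 2.2e-05). Psmb10 fell by 0.41, Psmg3 by 0.33 and Psme3 by 0.27 on the log2 scale; the first 2 calls were lost without replicate 2 of KCl at 2 h (edgeR adjusted p = 0.13 for each) or without replicate 2 of the control (adjusted p = 0.066 and 0.075). Zfand5, a ubiquitin-binding activator of the proteasome, rose by 1.20, Sqstm1 by 0.67 and Zfand2a by 0.61.

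After 7 h of KCl RNA of the core subunits was lower and RNA of the assembly factors diverged. Of 47 members 29 fell and 4 rose (61.7% and 8.51%), while 68.8% of all genes were called, 31.6% lower and 37.2% higher, and the medians were -0.18 for the members and 0.04 for all genes. All 7 alpha ring subunits and 6 of 7 beta ring subunits fell, but only 2 of 9 base subunits and 5 of 8 lid subunits did so; that difference between core and regulatory particle was not tested. The 4 that rose were Psmd5, Psme4, Psmd12 (0.16) and Psmb11, which had 2 expected counts in each control library and 16 and 20 at 7 h of KCl, too few for a fold. Over the 31 constitutive subunits the share of TPM was 0.971 and 0.966% in the control and 0.797 and 0.779% at 7 h of KCl. Summed TPM of the 14 core subunits divided by that of the 17 base and lid subunits was 1.14 and 1.13 in the control and 1.00 and 0.966 at 7 h of KCl. Of the 10 fibroblast markers 4 rose and 5 fell, with a median of -0.05.

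Psmb6 fell the most of the constitutive subunits, from 135 and 136 CPM to 71.7 and 61.8 CPM (-1.02 ± 0.08, edgeR adjusted p = 4.0e-08). Psma7 had 150 and 149 CPM in the control and 99.2 and 98.2 CPM with KCl (-0.60 ± 0.05), and Psmc1 had 144 and 136 CPM with KCl, below its control values (-0.41 ± 0.06). Psmd14, the deubiquitinase of the lid, fell by 0.48 ± 0.06 on the log2 scale. Psmf1 went to 23.2 and 20.8 CPM (-0.72 ± 0.08), while Psme4 rose to 244 and 248 CPM (0.60 ± 0.09, edgeR adjusted p = 4.3e-05). Both directions are opposite to those at 7 h of H2O2. Of the 26 other pathway genes 10 rose and 9 fell. Ngly1, the glycanase that NRF1 needs for its activation, fell by 1.38 ± 0.11 on the log2 scale, while Zfand5 rose by 0.80 and Nfe2l1 by 0.29. Of the CCT subunits 1 rose and 5 fell, with a median of -0.23. Between 2 h and 7 h of KCl, 7 members rose and 31 fell, beside 35.1% and 33.7% of all genes (68.8% called), and the total of 38 was 25 without replicate 1 of KCl at 7 h.

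Genes that work with the particle under other symbols were followed in each comparison. Pomp, the maturation factor of the beta ring, fell by 0.20 on the log2 scale at 44 °C and at 7 h of KCl and rose by 0.18 at 7 h of H2O2. The last 2 calls were lost without replicate 2 of KCl at 7 h (-0.14, edgeR adjusted p = 0.12) or replicate 1 of the control (-0.17, adjusted p = 0.080), and without replicate 1 of H2O2 at 7 h (0.08, adjusted p = 0.42) or with DESeq2 (adjusted p = 0.069). Adrm1, a ubiquitin receptor of the base, rose by 0.25 at 42 °C, which was not called on TPM (limma adjusted p = 0.19), and by 0.26 at 7 h of H2O2, which was not called without replicate 1 of H2O2 at 7 h (0.16, edgeR adjusted p = 0.15). Usp14 fell by 0.41 on the log2 scale at 7 h of KCl.

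Psmd5 was the member with the largest rise at 7 h of KCl apart from Psmb11. It had 101 and 90.2 CPM in the control and 333 and 337 CPM after 7 h of KCl, a rise of 1.81 ± 0.07 (edgeR adjusted p = 6.5e-11) or 3.50-fold. In footprints it had 100.3 and 129 CPM in the control and 297 and 331 CPM at 7 h of KCl (1.46 ± 0.20, edgeR adjusted p = 0.00046). Both readouts were thus separated from the control in every library. At 7 h of H2O2 the RNA had 92.1 and 84.5 CPM and the footprints 90.3 and 79.8 CPM, and neither was called. In heat Psmd5 RNA had 78.8 and 77.1 CPM in the control, 81.7 and 83.3 CPM at 44 °C, and 96.1 and 90.9 CPM at 42 °C.

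Other assembly factors, Psmg1, Psmg2 and Psmg4, moved the other way. Psmg1 and Psmg2 form the PAC1-PAC2 pair, on which the alpha ring is put together. Psmg1 RNA had 27.4 and 28.4 CPM in the control, 30.8 and 33.7 CPM at 2 h of KCl (0.21 ± 0.07, edgeR adjusted p = 0.025) and 13.3 and 12.6 CPM at 7 h of KCl (-1.10 ± 0.08, edgeR adjusted p = 3.0e-08). Psmg2 RNA went from 30.2 and 25.8 CPM in the control to 12.0 and 11.7 CPM at 7 h of KCl (-1.24 ± 0.09, edgeR adjusted p = 2.7e-08). The small rise of Psmg1 at 2 h of KCl was not called with DESeq2 (adjusted p = 0.063), nor without replicate 2 of KCl at 2 h (0.14, edgeR adjusted p = 0.20) or either control library (adjusted p = 0.13 and 0.057). Psmg4, a partner of Psmg3, had 6.60 and 7.34 CPM in the control and 4.86 and 3.31 CPM at 7 h of KCl (-0.75 ± 0.15). Psmg3 itself, with 12.9 and 13.8 CPM in the control and 12.3 and 12.9 CPM at 7 h of KCl, was not called (-0.09). In footprints Psmg2 had 55.0 and 55.0 CPM in the control and 22.2 and 30.6 CPM at 7 h of KCl (-1.05 ± 0.21, edgeR adjusted p = 0.0050), and Psmg1 had 51.9 and 50.3 CPM and then 22.5 and 29.5 CPM (-0.96 ± 0.22, edgeR adjusted p = 0.0091). Without replicate 1 of KCl at 7 h neither footprint fall was called (Psmg2 at edgeR adjusted p = 0.052, Psmg1 at 0.082). Psmg4 footprints, 12.0 and 8.52 CPM in the control and 7.14 and 8.23 CPM at 7 h of KCl, were not called.

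**Figure D3:**
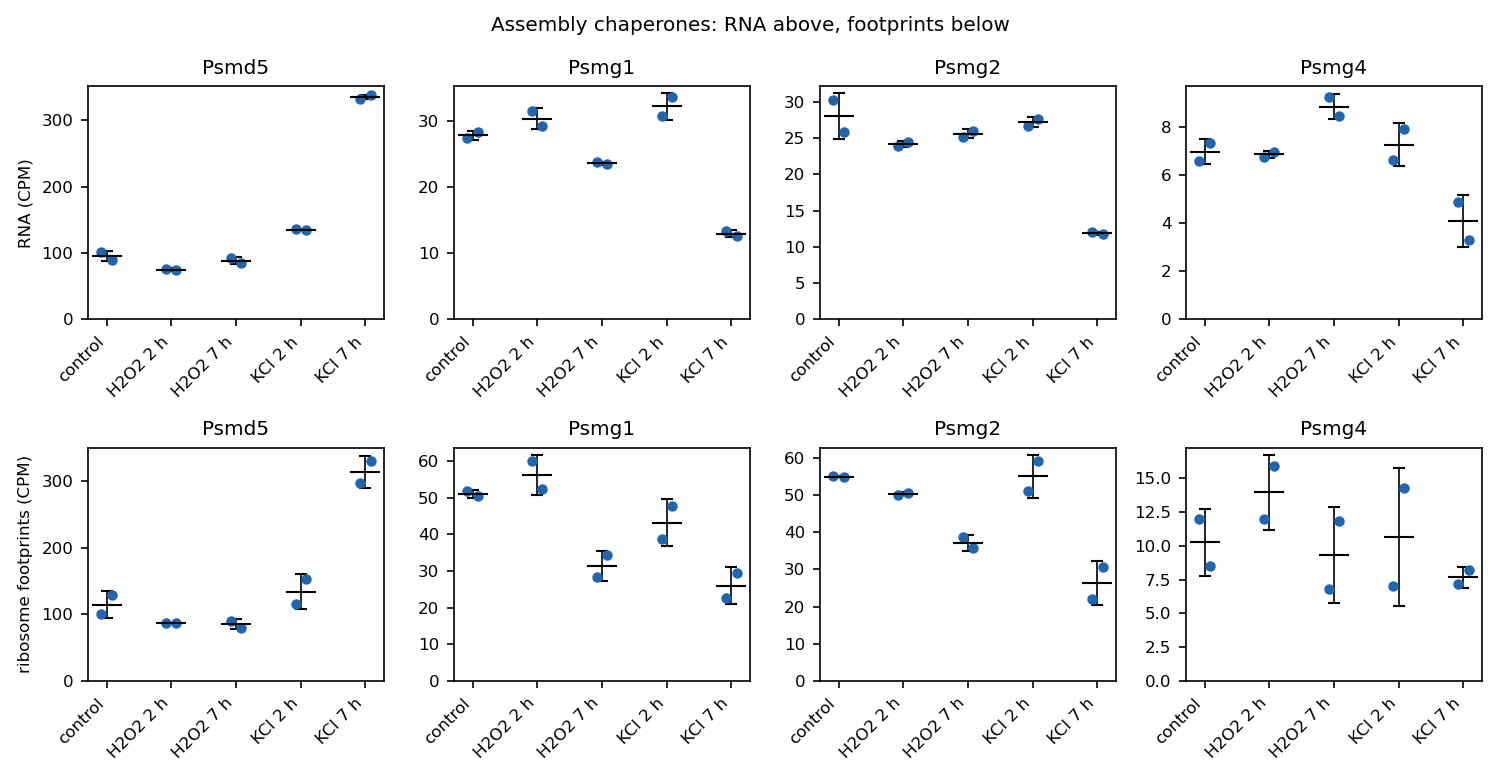
RNA and footprint CPM of Psmd5, Psmg1, Psmg2 and Psmg4 by group; points are libraries and bars give the mean ± SD of 2 libraries. Psmd5 reaches 333 and 337 CPM in RNA at 7 h of KCl, above every other group, where Psmg1 and Psmg2 RNA are at their lowest.

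RNA of the immune forms of the proteolytic subunits differed between stresses, each set against its own control. The unstressed controls differed too. Psmb8 had a mean of 18.0 TPM in the heat control and 7.7 TPM in the H2O2 and KCl control, and Psmb9 had 4.5 and 2.1 TPM. Psmb10 was closer, with 36.1 and 38.3 TPM. At 44 °C Psmb8, Psmb9, Psmb10, Psme1 and Psme2 were all below 0, and 4 of the 5 were called lower. At 7 h of H2O2, Psmb8 RNA went from 3.85 and 4.17 CPM to 8.89 and 6.92 CPM (0.99 ± 0.16, edgeR adjusted p = 5.7e-05). Psmb9 went from 0.745 and 0.681 CPM to 2.34 and 2.14 CPM (1.64), and Psme1 from 69.3 and 70.7 CPM to 93.2 and 94.5 CPM (0.42 ± 0.08). Psmb10 did not share that direction: it had 20.9 and 21.8 CPM in the control and 17.6 and 15.3 CPM at 7 h of H2O2 (-0.37 ± 0.12), a fall not called without replicate 2 of H2O2 at 7 h (-0.28, edgeR adjusted p = 0.12) or without replicate 2 of the control (-0.34, adjusted p = 0.067). Psme2 was not called at 7 h of H2O2, with 102 and 93.0 CPM in the control and 108 and 99.4 CPM with H2O2. In footprints Psmb8 and Psmb10 were not called against the control at 7 h of H2O2 or of KCl, and Psmb9 was not tested. At 7 h of KCl RNA of all these genes was lower. Psmb10 had 11.3 and 13.4 CPM (-0.79 ± 0.13) and Psme1 had 50.0 and 55.0 CPM (-0.42). Psmb8 had 2.04 and 2.91 CPM (-0.71 ± 0.19, edgeR adjusted p = 0.0047), a fall not called without replicate 1 of KCl at 7 h (-0.46, adjusted p = 0.099).

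Even at its highest share, Psmb8 stayed a small fraction of its constitutive partner. Psmb8 TPM was 1.78 and 1.86% of Psmb5 TPM in the H2O2 and KCl control, 4.58 and 4.02% after H2O2 for 7 h, and 1.11 and 1.74% after KCl for 7 h. In the heat experiment it was 5.25 and 4.87% in the control and 2.55 and 2.54% at 42 °C. The share after H2O2 for 7 h thus lay below that of the unstressed heat control. Psmb9 TPM was 0.712 and 0.616% of Psmb6 TPM in the control, 2.36 and 2.41% after H2O2 for 7 h, and 0.263 and 0.381% after KCl for 7 h. Few Psmb9 reads stand behind these shares, with 36 and 26 expected counts in the control, 77 and 54 after 7 h of H2O2 and 5 in each library after 7 h of KCl. The 5 leukocyte markers summed to 9.65 to 10 TPM in the control, 42.8 to 44.7 TPM at 7 h of H2O2 and 21.0 to 21.4 TPM at 7 h of KCl, with Adgre1 and Cd3e at 0 in each. A different gene made up each rise. Cd68 had 9.98 and 9.59 TPM in the control, 44.7 and 42.6 TPM after H2O2 and 5.32 and 5.62 TPM after KCl, while Csf1r had 0.02 and 0.06 TPM, then 0.03 and 0.11 TPM, and 16.1 and 15.4 TPM in that order. The part of these markers in the results was not tested.

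**Figure D4:**
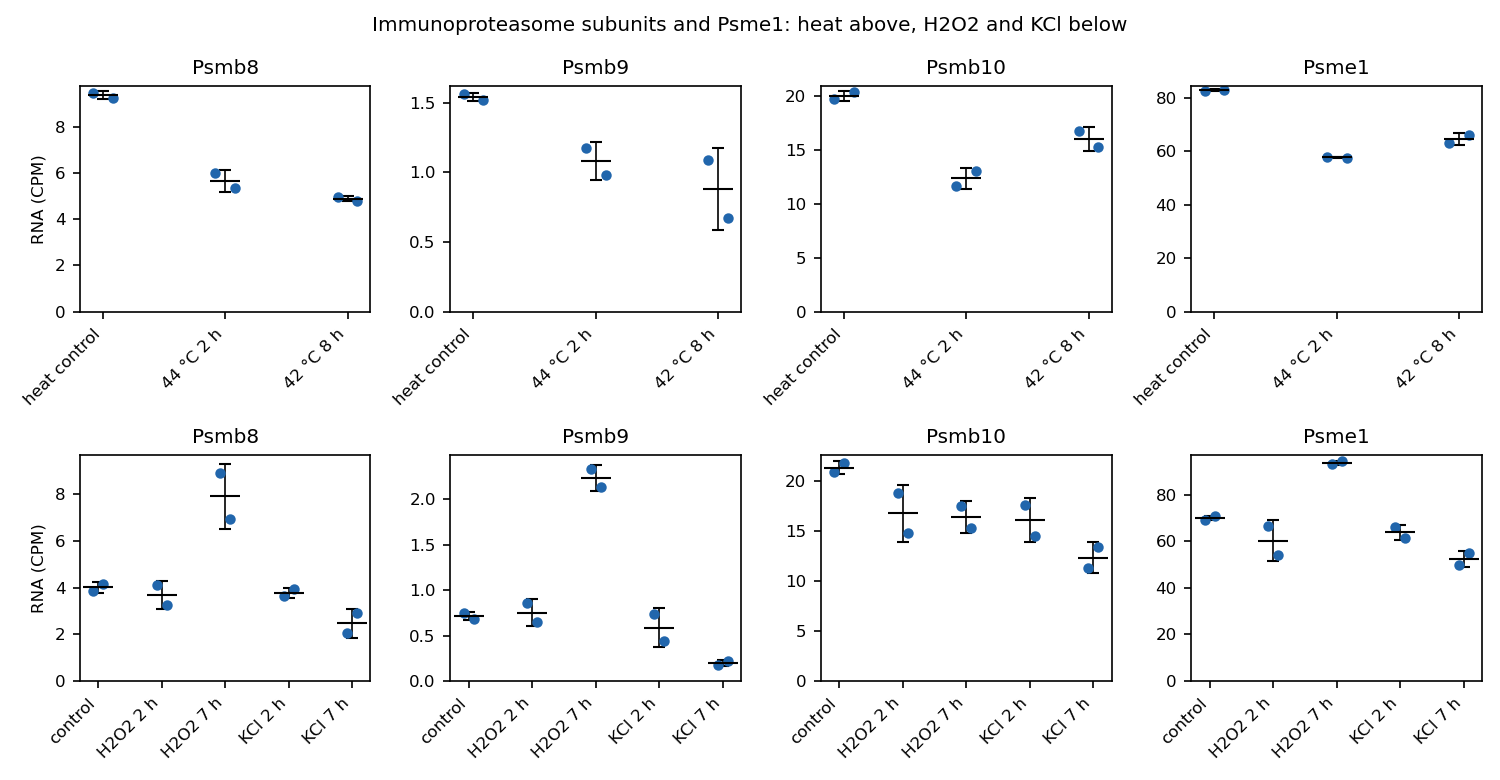
RNA CPM of Psmb8, Psmb9, Psmb10 and Psme1 in the 8 RNA groups; points are libraries and bars give the mean ± SD of 2 libraries. Psmb8, Psmb9 and Psme1 are above the control at 7 h of H2O2 and below it at 44 °C, 42 °C and 7 h of KCl, while Psmb10 is below its control in each of these groups.

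H2O2 and KCl were set against each other at the same time. At 2 h, 6 members were higher and 9 lower with H2O2, while 51.3% of all genes were called, 27% higher and 24.2% lower; on TPM the counts were 8 and 3, and without either replicate of H2O2 at 2 h the total was 9 in place of 15. At 7 h, 33 of 47 were higher and 6 lower with H2O2, beside 41% and 37.4% of all genes (78.4% called), with a median of 0.36. Psmb9 (3.48), Psmb8 (1.70 ± 0.19) and Psmf1 (1.38 ± 0.08) were furthest above KCl, followed by the assembly factors Psmg2 and Psmg4 (both 1.10). Psmd5 (-1.92 ± 0.07) and Psme4 (-1.01 ± 0.09) were furthest below it, apart from Psmb11. The change from 2 h to 7 h itself differed between the treatments for 34 members in RNA, 29 of them higher and 5 lower with H2O2, where 68% of all genes differed, 32.5% higher and 35.5% lower.

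Footprints of most members were not shown to change. At 2 h of H2O2, 0 of 45 were called by edgeR or DESeq2, with 4 at an unadjusted p under 0.05, where 1.91% of 10545 genes were called. At 2 h of KCl, 0 were called by either tool, with 2 at an unadjusted p under 0.05, beside 6.86% of all genes. At 7 h of H2O2, 1 was called beside 27.7% of all genes: Psmg1, from 51.9 and 50.3 CPM to 28.5 and 34.3 CPM (-0.70 ± 0.22, edgeR adjusted p = 0.028). That call was lost with DESeq2 (adjusted p = 0.057) and when any 1 library of its groups was left out. At 7 h of KCl, 4 of 45 were called beside 20.4% of all genes: Psmd5, Psmg1, Psmg2 and Psmb6. Psmb6 footprints went from 275 and 339 CPM to 187 and 190 CPM (-0.71 ± 0.21, edgeR adjusted p = 0.033). It was not called without either replicate of KCl at 7 h (edgeR adjusted p = 0.14 and 0.13) or without replicate 2 of the control (adjusted p = 0.20). Without replicate 1 of KCl at 7 h Psmd5 alone stayed called. The 14 core subunits had a median of 0.00 in footprints at 7 h of KCl and of -0.30 in RNA. Footprint libraries held fewer counts than RNA libraries, and the part of depth in the few calls was not tested.

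Between 2 h and 7 h of H2O2, footprints of Psmg1, Psmb5 and Psmb6 fell, 3 of 45 beside 29.8% of all genes. Psmb5 had 549.6 and 374 CPM at 2 h and 229 and 304 CPM at 7 h (-0.79), and 0 members were called without replicate 1 of H2O2 at 7 h, 1 without replicate 1 of H2O2 at 2 h. Between 2 h and 7 h of KCl, Psmd5 rose by 1.23 ± 0.20 and Psmb10, Psmg2, Psmb6 and Psmg1 fell, 5 of 45 beside 20.6% of all genes. Psmb10 had 24.2 and 28.2 CPM at 2 h and 9.77 and 11.1 CPM at 7 h (-1.32 ± 0.37). Leaving out 1 library gave 1 to 3 called members, with Psmd5 called each time, and Psmd5 alone without replicate 2 of KCl at 2 h or replicate 1 of KCl at 7 h.

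Translational efficiency, footprints relative to RNA of the same gene, was tested as an interaction over both kinds of library. Psme4 was lower at 2 h of H2O2 (-0.74 ± 0.23, edgeR adjusted p = 0.046), 1 of 45 members beside 11.4% of all genes. Psme3 was lower at 7 h of H2O2 (-0.62 ± 0.18, edgeR adjusted p = 0.044), 1 of 45 beside 9.27%. Psmb10 was higher at 2 h of KCl (1.23 ± 0.35, edgeR adjusted p = 0.029), 1 of 45 beside 12.8%. At 7 h of KCl edgeR called 0 of 45 beside 5.57% of all genes, with 8 members at an unadjusted p under 0.05. DESeq2 called 6 members higher there, and its share over all genes is not given here. In edgeR at 7 h of KCl all 14 constitutive core subunits were above 0, with a median of 0.32, and 34 of the 45 members were above 0. Above 0 too were 9 of the 10 fibroblast markers, with a median of 0.29, and 6 of the 8 CCT subunits, with a median of 0.192. The median of all genes in this comparison is not given here. From 2 h to 7 h of H2O2 edgeR called 0 beside 7.2% of all genes, with 15 members at an unadjusted p under 0.05. DESeq2 called 7 lower, again without a matching share over all genes. In that comparison 40 of 45 members were below 0, with a median of -0.27 beside 0.08 over all genes; the shallowest footprint library belongs to it. From 2 h to 7 h of KCl, Psma7 was higher (0.58 ± 0.17, edgeR adjusted p = 0.044), 1 of 45 beside 6.84%. Each of these 4 calls was lost on leaving out single libraries. The adjusted p rose to 0.15 for Psme4 without RNA replicate 2 of H2O2 at 2 h and to 0.15 for Psme3 without RNA replicate 2 of H2O2 at 7 h. For Psmb10 it rose to 0.17 without footprint replicate 1 of the control, and for Psma7 to 0.12 without footprint replicate 2 of KCl at 7 h.

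The study asked how transcription that runs past a gene's end under stress reaches the neighbouring gene. In the authors' deposited table of 6399 neighbouring gene pairs, 48 pairs held a proteasome gene, 31 as the upstream and 17 as the downstream gene. Pairs with a member upstream were called as having downstream transcription in 34.3% of pair and library combinations, beside 28.5% over all pairs. Psmc6 and Psmd4 were called in all 16 RNA libraries, controls included. A read-in call, for transcription entering the downstream gene, was made in 3 of the 48 pairs. These pairs had 12 read-in calls, beside 1415 over all 6399 pairs. The rates of read-in calls were not compared, and the number of all pairs with such a call is not given here.

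Of the 3 pairs with a read-in call, only that of Brwd1 and Psmg1 had the member downstream. The authors' read-in estimate, a ratio deposited without a formula in the sources used here, was 0.000744 and 0.00819 for it in the H2O2 and KCl control. After 2 h it was 0.0873 and 0.0994 with H2O2 and 0.224 and 0.262 with KCl, and after 7 h of KCl it was 0.0475 and 0.0792. Psmg1 RNA was called higher in edgeR at 2 h of KCl, where the estimate was highest. That call was lost with DESeq2, without replicate 2 of KCl at 2 h and without either control library. Psmg1 footprints at 2 h of KCl, 38.6 and 47.6 CPM, lay below both control libraries. What part of the Psmg1 counts came from transcripts started in Brwd1 was not tested. For read-in from Psmd8 into Spred3 the estimate was 0 and 0.0215 in the control, 0.190 and 0.213 with H2O2 for 2 h, 1.11 and 1.62 with KCl for 2 h. The heat control had estimates of 0.0122 and 0.0259, against 0.111 and 0.0845 for 44 °C and 0.0235 and 0.0508 for 42 °C. The estimate was thus above both control values in every library at 44 °C, where Psmd8 RNA had fallen. It was also above them at 2 h of H2O2, where Psmd8 RNA had risen. At 2 h of KCl, with the highest estimates, Psmd8 RNA had 298 and 256 CPM, beside 290 and 275 CPM in the control, and was not called. The 3 read-in calls of this pair were in replicate 2 of H2O2 at 2 h and in both replicates of KCl at 2 h, not in heat. A link between the estimate and Psmd8 RNA was not tested. The other pair was Psme3 and Aoc2, with 6 calls.

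**Figure D5:**
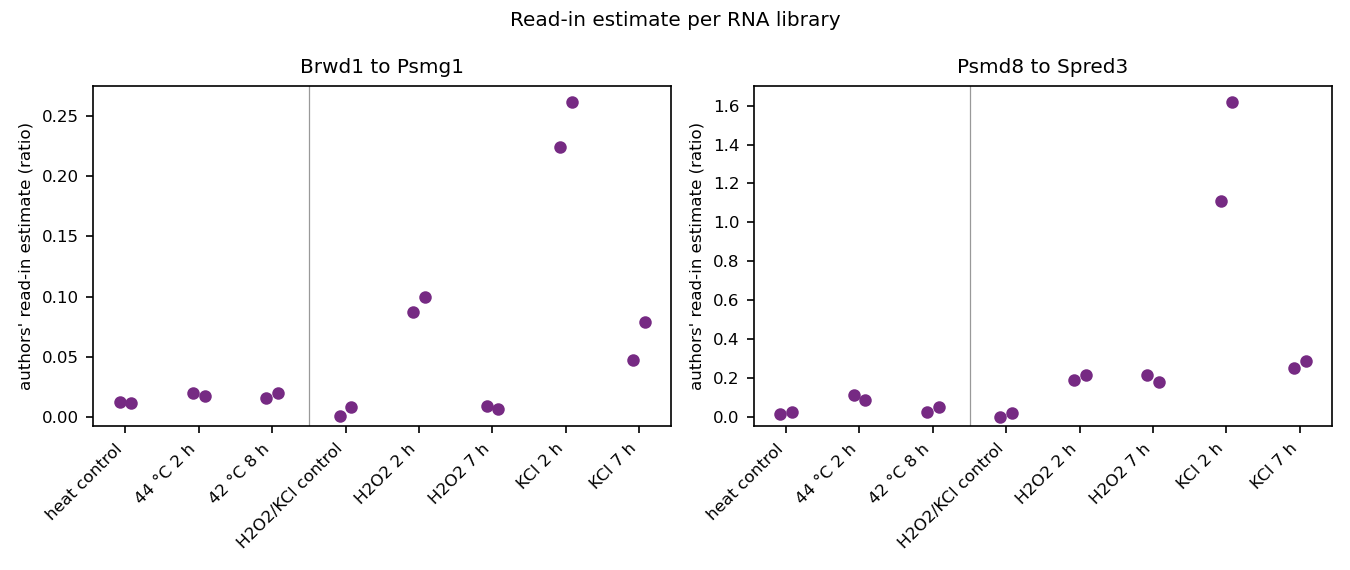
The authors' read-in estimate per RNA library for the pairs Brwd1 to Psmg1 and Psmd8 to Spred3, by group; each point is 1 library. Both pairs are highest at 2 h of KCl, at 0.224 and 0.262 and at 1.11 and 1.62.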

How the data were processed

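Polyadenylated RNA and ribosome footprints were measured in the libraries described above. The authors deposited expected counts and TPM per gene, and per pair of neighbouring genes a true or false call, another kind of value, for downstream transcription and for read-in, and a read-in ratio. The processing notes of the submitters name STAR, RSEM, Bowtie and mm10, without roles or versions. The expected counts as deposited were whole numbers. A further 12 columns had names of no labelled sample and were left out.

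Counts were tested with edgeR 4.0.16 in R 4.3.3 (TMM, filterByExpr, quasi-likelihood test, Benjamini-Hochberg over all genes). The heat and H2O2/KCl experiments, and RNA and footprints, were fitted apart; translational efficiency was an interaction term. Alternatives were DESeq2 1.42.0, DESeq2 size factors, limma 3.58.1 on log2(TPM + 1), no filter, only the groups compared, a replicate block, and leaving out each library; voom with limma was an alternative for translational efficiency. Log2 differences on that TPM scale understate changes of low genes. The fits were tested on simulated data. Replicates correlated between 0.997 and 0.998 in RNA and between 0.954 and 0.979 in footprints, and none was a duplicate. Psma8 was never tested. Psmb11 was tested in RNA of the H2O2/KCl experiment only, and Psmb9 in RNA only. Pseudogene copies of Psmb6 and Psmb7 can share reads with these genes.

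Members and lists were chosen with earlier results of these data known. In each comparison the text names, by role, the called member with the largest rise and fall, the 3 called members with the largest change, and the called pathway genes with the largest rise and fall, with Nfe2l1, Pomp, Adrm1, Usp14, Zfand2a and Sqstm1. Other members described were chosen after their values were seen. Paaf1 was not analysed here. Not every gene that the rule names is reported here.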

Additional observations from a re-analysis of the deposited data

Results flagged for a closer look

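The change from 2 h to 7 h differed between H2O2 and KCl by a test of the difference itself. Given here are the called members with a difference of at least 1 on the log2 scale, 7 in RNA and 1 in footprints, leaving out Psmb11 for its few counts. At any size of difference, 68% of all 13256 genes were called in RNA. In footprints 16.9% of all 10545 genes were called, beside 1 of 45 members. The share of all genes with a difference of at least 1 is not given here. The member values are log2 differences, H2O2 minus KCl, tested with edgeR. Psmd5 was at -1.07 in RNA, where it rose with both treatments, by 0.24 with H2O2 and 1.31 with KCl, and at -1.26 in footprints. Psmb9 was at 3.12 and Psmb8 at 1.75, both of them low in these cells, Psmb9 with 5 expected counts in each library at 7 h of KCl. The alpha ring chaperones Psmg2 and Psmg4 were at 1.27 and 1.18, the inhibitor Psmf1 at 1.12 and the base ATPase Psmc1 at 1.09.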

How the results depend on the processing

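Counts are members called, in both directions together, and the causes of their changes were not tested. Shares of all genes called are given for the main edgeR fit only, so counts under the alternatives have no matching share here. In RNA, TPM with limma gave 18 at 42 °C in place of 37 and 17 at 2 h of KCl in place of 9. Fitting only the groups compared gave 5 at 2 h of KCl, 8 in place of 15 for H2O2 against KCl at 2 h, and 3 in place of 1 for footprints at 7 h of H2O2, where DESeq2 gave 0. For translational efficiency, where edgeR called 1 or 0, DESeq2 gave 9 at 2 h and 2 at 7 h of H2O2, 2 at 2 h and 6 at 7 h of KCl, 7 from 2 h to 7 h of H2O2 and 2 from 2 h to 7 h of KCl. No filter gave 3 at 2 h of H2O2 and 0 for the KCl time change, which DESeq2 size factors also brought to 0. Only the groups compared gave 0 at 2 h of H2O2 and 0 for the KCl time change. With limma voom there were 3 at 7 h of H2O2, 0 at 2 h of KCl and 1 for the H2O2 time change.

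With the replicate block, translational efficiency gave 3 at 2 h and 3 at 7 h of H2O2, 2 at 2 h of KCl and 2 for the H2O2 time change. In RNA the block gave 5 higher and 14 lower at 2 h of H2O2, and 4 higher and 29 lower at 7 h of KCl. Correlations of same-numbered libraries over pairs of groups ran from -0.0247 to 0.117 in heat RNA, -0.0531 to 0.0537 in H2O2/KCl RNA and -0.384 to 0.417 in footprints. They were above 0.1 in 1 of 3, 0 of 10 and 6 of 10 pairs of groups, and not in all pairs of any readout, so the numbers were not taken as pairs.

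On TPM, Psma7 (-0.0514), Psmc1 (-0.0228), Psmc2 (-0.0507), Psmf1 (-0.0650) and Psmg2 (-0.0181) turned lower at 42 °C, and Psmd5 (-0.0697), Psme1 (-0.0911), Psme3 (-0.0654) and Zfand2a (-0.0231) turned lower at 42 °C against 44 °C. Of 272 results on named genes, 174 kept their call under all alternatives run and 98 did not.

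Leaving out 1 library gave 34 to 36 members at 44 °C, 28 to 35 at 42 °C, 37 to 38 between them, 4 to 15 at 2 h and 19 to 23 at 7 h of H2O2, 3 to 14 at 2 h and 23 to 29 at 7 h of KCl, 17 to 25 for the H2O2 and 25 to 34 for the KCl time change, and 9 to 13 and 32 to 37 for H2O2 against KCl at 2 h and 7 h. Footprints gave 0 at 2 h and 0 at 7 h of H2O2, 0 at 2 h and 1 to 5 at 7 h of KCl, and 0 to 4 and 1 to 3 for the time changes. Translational efficiency gave 0 to 9 and 0 to 2 for H2O2, 0 to 1 and 0 to 1 for KCl, and 0 to 5 and 0 to 2 for the time changes. Where an arm held 1 library, it was assumed to vary like the other groups.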
